A study of Mus musculus with 10 samples.

Results

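The LIM-only cofactors and their partners were followed here as 4 genes, Lmo4, Lmo2, Ldb1 and Lyl1, out of 19938 gene symbols on the array. Each was taken as the probe set whose only symbol in the platform annotation is that gene, and each of the 4 has 1 such probe set. Where a symbol has several, the probe set is chosen by its mean level over the 10 arrays, which was 8.69 for Lmo4, 7.00 for Lmo2, 9.04 for Ldb1 and 9.49 for Lyl1 in RMA log2 units. These units come from different probes, so the 4 levels are not ranked against each other. All 4 genes lay above the filter on dim rows (4.52 log2, the 25th percentile of the symbols) and were among the 14953 genes tested. Lmo4 was already known to have one of the smallest p-values in the genotype comparison when these genes were picked, so its difference is given as a description.

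The heterozygous group was 5 Hspa9+/- mice and the wild type group was 5 Hspa9+/+ littermates. Bone marrow of each mouse was cultured separately for 7 days in methylcellulose that supports pre-B colonies (CFU-PreB, colonies grown from single B cell precursors), and B220+ cells were sorted from the colonies for 1 Mouse Gene 1.0 ST array per mouse. Both groups share the culture, the sort and the cDNA amplification. Age, sex and the structure of the Hspa9 allele are not in the labels used here. Hspa9 encodes mortalin, a chaperone of the mitochondrial matrix.

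LIM-only proteins consist of little more than a pair of LIM domains, zinc-binding modules that hold other proteins and do not bind DNA. Ldb1, the LIM-binding protein, dimerises and thereby bridges LIM-only proteins and LIM-homeodomain factors into larger complexes. In blood precursors Lmo2 and Ldb1 join a basic helix-loop-helix factor such as Tal1 or Lyl1, an E protein such as Tcf3 (E47 and E12) and a GATA factor into a complex that reads E-box and GATA motifs. Lmo4 competes for the same Ldb1 surface and is known in several epithelial and lymphoid tissues, and misexpression of Lmo2 or Lyl1 in T cell precursors is a known route to T cell leukaemia.

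Array medians ran from 5.38 to 5.49 log2, and the number of arrays limits the precision. Hspa9 had a mean of 9.18 ± 0.24 in heterozygous and 9.92 ± 0.38 in wild type arrays (SD, n = 5 each), a difference of -0.73 (adjusted p = 0.345). It ran from 8.92 to 9.52 in heterozygous and from 9.49 to 10.36 in wild type arrays, so the groups overlapped. Of 9 listed B lineage genes 8 were measured, and Cd79a, Cd79b, Vpreb1 and Igll1 ran from 11.56 to 12.59 log2 over all arrays. Of the 8, 5 had a lower mean in heterozygous arrays, as Lmo4 did, and 0 passed adjustment. Among the 5 were Ptprc, which encodes the sorted B220 antigen (-0.68, adjusted p = 0.490), and the B cell factors Pax5 (-0.47) and Ebf1 (-0.40). The other 3 had a higher mean, Igll1 at 0.28, Vpreb1 at 0.16 and Blnk at 0.067. Igll1 alone of the 8 had an unadjusted p under 0.05, where 11.0% of all genes did. The mean of the 8 ran from 10.79 to 11.25 in heterozygous and from 11.08 to 11.31 in wild type arrays, and its part in the results was not tested. Macrophage markers were present too and set 2 arrays apart: the mean of the 12 listed genes was 7.36, 9.68, 7.33, 7.12 and 7.26 in heterozygous arrays 1 to 5, against 9.20, 7.67, 5.89, 5.63 and 5.82 in wild type arrays 1 to 5. Heterozygous 2 and wild type 1 were highest. The members' differences are also given without these 2 arrays.

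Lmo4, on chromosome 3 (GRCm38.p6, 144188530 to 144205255), was at a lower level in heterozygous cells. Its RMA log2 values were 8.07, 8.29, 8.46, 8.33 and 7.99 in heterozygous arrays 1 to 5, against 8.94, 9.15, 9.01, 9.29 and 9.32 in wild type arrays 1 to 5. The groups did not overlap: the highest heterozygous array lay 0.48 below the lowest wild type array. Means were 8.23 ± 0.20 in heterozygous and 9.14 ± 0.17 in wild type arrays (SD, n = 5 each). The difference was -0.92 (SE 0.121, 95% interval -1.18 to -0.65), or 53.0% of the wild type level (44.1 to 63.7%). In sorted cells measured in bulk, fewer cells with a transcript and less of it per cell cannot be told apart.

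Among all 14953 genes Lmo4 ranked second by p, and its limma adjusted p was 0.0795, so it did not pass the threshold of 0.05. No gene did, a background of 0%; 1650 genes had an unadjusted p under 0.05, or 11.0%. Of the 4 genes followed here, Lmo4 alone had groups that did not overlap, where 2.28% of all genes did (0.809% with heterozygous arrays lower, 1.47% with them higher). The adjusted p was 0.0224 without wild type 1, 0.0209 with array weights and 0.0356 without both wild type 1 and heterozygous 2, and at those settings Lmo4 passed. In that order, these settings called 22, 137 and 26 genes, and Lmo4 ranked 7, 5 and 12 by p. Its adjusted p reached 0.320 with 1 array left out and was 0.501 with a replicate block. The difference stayed between -1.03 and -0.86 in all 22 alternative settings.

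**Figure D1:**
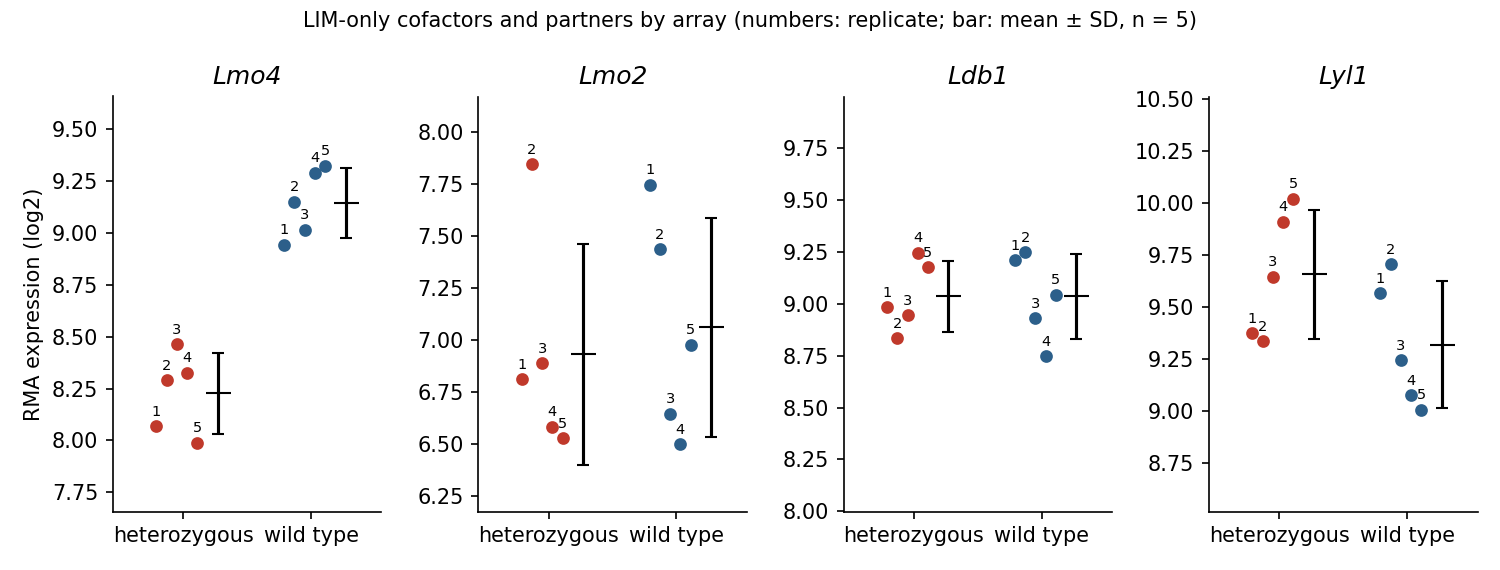
RMA expression (log2) of Lmo4, Lmo2, Ldb1 and Lyl1 in each array, heterozygous left and wild type right, with mean ± SD (n = 5) beside the points; every panel spans the same number of log2 units. Heterozygous arrays lie between 7.99 and 8.46 for Lmo4, below all wild type arrays (8.94 to 9.32), while the groups overlap for the other 3 genes.

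Lmo4 was also set against the macrophage markers. With each genotype's mean subtracted, Pearson's r between Lmo4 and their mean was -0.29 over the 10 arrays (Spearman's rho -0.44), and r was -0.17 over the 8 arrays left without heterozygous 2 and wild type 1. It was 0.16 among the 5 heterozygous and -0.68 among the 5 wild type arrays, and whether the genotypes differ in this was not tested. With the macrophage mean as a covariate the Lmo4 difference was -0.88 (SE 0.127, adjusted p = 0.0662). Lists of 2 other cell types separated the genotypes as Lmo4 did, in the other direction. The T cell and NK cell mean (6 of 9 genes tested) ran from 5.79 to 6.02 in heterozygous and from 5.35 to 5.63 in wild type arrays. Its tested genes other than Thy1 were dim, at most 5.84 in any array (Nkg7). The early progenitor mean (5 of 7 tested) ran from 5.55 to 5.89 in heterozygous and from 5.25 to 5.48 in wild type arrays. With early progenitor markers as a covariate, which then takes up most of the genotype contrast, Lmo4 was at -1.03 (SE 0.238, adjusted p = 0.904). Plasmacytoid dendritic cell markers had the largest genotype difference of the 9 marker lists, with a mean of 7.69 in heterozygous and 6.57 in wild type arrays (5 of 6 genes tested), a difference of 1.12. All 5 had a higher mean in heterozygous arrays, as 61.3% of all genes did. Of the 5 markers 4 had an unadjusted p under 0.05 (6.79% of all genes were higher at that p) and 0 passed adjustment. Pearson's r between Lmo4 and their mean was -0.65 over all arrays and -0.0019 with genotype means subtracted. The part of the T cell and NK cell markers and of the plasmacytoid dendritic cell markers in the Lmo4 difference was not tested.

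The tested protein-coding genes nearest to Lmo4 on chromosome 3, looked up after the Lmo4 values had been seen, had 95% intervals that include 0, and 3 of the 4 had a lower mean in heterozygous arrays. On one side Gtf2b, a general transcription factor, was at -0.18 (95% interval -0.47 to 0.11), and the protein kinase gene Pkn2 at -0.43 (-1.04 to 0.19), an interval that also holds the Lmo4 difference. On the other side Hs2st1, a heparan sulfate sulfotransferase, was at -0.15 (-0.40 to 0.089), and the selenoprotein gene Selenof at 0.10 (-0.17 to 0.37). Their limma adjusted p lay between 0.546 and 0.725.

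Promoter windows of 300 bases, from 250 before to 50 after an annotated start, are shown for the members with an entry in the RefSeq table of GRCm38.p6 (3 of the 4; Lmo2 was not matched). They were searched on both strands for the motifs that the Lmo2 and Ldb1 complex is known to read: the E-box CANNTG, its form CAGCTG, which lies within the first motif, and GATAA. Of 32544 distinct windows in the table, 72.3% hold CANNTG, 16.4% hold CAGCTG and 25.3% hold GATAA. The windows of Lmo4 are shown because it had the largest difference of the 4 genes, and capitals mark a motif. The window at the outermost start, on the minus strand at chr3:144205206-144205505, holds none of the 3 motifs, and one at an inner start, at chr3:144202347-144202646, holds 1 CANNTG. The remaining window overlaps the inner one and holds the same E-box.
Lmo4 outer start: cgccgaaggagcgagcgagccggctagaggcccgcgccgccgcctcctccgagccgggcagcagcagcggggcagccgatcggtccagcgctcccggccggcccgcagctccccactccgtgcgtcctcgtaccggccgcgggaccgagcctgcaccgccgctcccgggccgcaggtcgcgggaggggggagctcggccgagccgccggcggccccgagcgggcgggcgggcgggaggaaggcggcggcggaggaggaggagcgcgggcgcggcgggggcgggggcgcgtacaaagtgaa
Lmo4 inner start: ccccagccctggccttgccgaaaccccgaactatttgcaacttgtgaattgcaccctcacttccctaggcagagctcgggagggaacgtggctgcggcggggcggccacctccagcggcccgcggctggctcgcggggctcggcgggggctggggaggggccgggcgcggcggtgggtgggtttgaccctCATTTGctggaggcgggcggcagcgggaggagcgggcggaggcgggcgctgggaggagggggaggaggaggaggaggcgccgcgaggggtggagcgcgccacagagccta
G and C make up 81.3% of the outer window, against a median of 53% over all windows. No match says only that these letters are not in the window.

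Lmo2, on chromosome 2 (103957903 to 103981878), varied more between mice than between genotypes. Its RMA log2 values were 6.81, 7.85, 6.89, 6.58 and 6.53 in heterozygous arrays 1 to 5, against 7.75, 7.44, 6.64, 6.50 and 6.98 in wild type arrays 1 to 5. Heterozygous 2 and wild type 1 were the highest of their groups, and the groups overlapped over nearly their whole range. Means were 6.93 ± 0.53 in heterozygous and 7.06 ± 0.53 in wild type arrays (SD, n = 5 each). The difference was -0.13 (SE 0.294, 95% interval -0.78 to 0.52; adjusted p = 0.856), and the two-sided exact permutation test over the 252 splits of the arrays gave p = 0.730. The interval spans 58.3 to 143% of the wild type level, so a change within that range in either direction is not excluded. Leaving out wild type 1 put the difference at 0.042, leaving out heterozygous 2 at -0.36, and leaving out both at -0.19 (adjusted p of 0.944, 0.527 and 0.605).

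Lmo2 ran with the macrophage markers from array to array. With genotype means subtracted, Pearson's r between Lmo2 and their mean was 0.94 over the 10 arrays (Spearman's rho 0.83). It was 0.86 over the 8 arrays without heterozygous 2 and wild type 1. Without subtraction r was 0.82. Of the 14941 genes outside the marker list, 2.97% had an r at least as high, and 5% had one above 0.90, so many genes shared this pattern. Neutrophil markers (r 0.93), plasmacytoid dendritic cell markers (0.93) and megakaryocyte markers (0.86) ran with Lmo2 as well. For neutrophil markers r was 0.73 and for megakaryocyte markers 0.43 without heterozygous 2 and wild type 1, and for erythroid markers it was -0.88 over all 10 arrays. These lists share the arrays and vary together. All 12 macrophage genes had a higher mean in heterozygous arrays, as 61.3% of all genes did. Of the 12, 0 had an unadjusted limma p under 0.05 (6.79% of all genes were higher at that p) and 0 passed adjustment. The difference of the list means was 0.91 for macrophage markers and 1.12 for plasmacytoid dendritic cell markers. With the macrophage mean as a covariate the Lmo2 difference was -0.47 (SE 0.130), with an unadjusted p of 0.0039 and an adjusted p of 0.193, against -0.13 without it. With that covariate and without heterozygous 2 and wild type 1, a setting chosen after seeing the data, it was -0.60 (SE 0.171, adjusted p = 0.336). With the early progenitor mean as a covariate, which takes up most of the genotype contrast, it was -1.02 (SE 0.486, adjusted p = 0.904). The part of the plasmacytoid dendritic cell markers was not tested.

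The other LIM-only genes, Lmo1 and Lmo3, stood below the filter and were not tested. Lmo1 ran from 4.06 to 4.54 in heterozygous and from 3.83 to 4.13 in wild type arrays, and Lmo3 from 3.83 to 4.15 in heterozygous and from 3.77 to 4.20 in wild type arrays.

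Ldb1, on chromosome 19 (46031525 to 46048145), had the same mean in both genotypes. Its RMA log2 values were 8.98, 8.83, 8.94, 9.24 and 9.17 in heterozygous arrays 1 to 5, against 9.21, 9.25, 8.93, 8.75 and 9.04 in wild type arrays 1 to 5. The groups covered nearly the same range. Means were 9.04 ± 0.17 in heterozygous and 9.04 ± 0.21 in wild type arrays (SD, n = 5 each). The 95% interval of the difference ran from -0.27 to 0.27 (adjusted p = 0.999), that is, from 82.8 to 121% of the wild type level. The two-sided exact permutation p was 1.

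Lyl1, on chromosome 8 (84701423 to 84704716), had a higher mean in heterozygous cells with overlapping groups. Its RMA log2 values were 9.37, 9.33, 9.65, 9.91 and 10.02 in heterozygous arrays 1 to 5, against 9.56, 9.71, 9.24, 9.08 and 9.004 in wild type arrays 1 to 5. Of the 5 heterozygous arrays 2 lay above every wild type array, and wild type 1 and 2 lay above heterozygous 1 and 2. Means were 9.66 ± 0.31 in heterozygous and 9.32 ± 0.31 in wild type arrays (SD, n = 5 each). The difference was 0.34 (SE 0.180, 95% interval -0.058 to 0.73; adjusted p = 0.498), with a two-sided exact permutation p of 0.119. It did not pass in any of the 22 alternative settings, where it ran from 0.18 to 0.48 with adjusted p from 0.158 to 0.915. The value of 0.48 was without wild type 1 and heterozygous 2 (95% interval 0.059 to 0.90, adjusted p = 0.277).

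Within each genotype, Ldb1 and Lyl1 were high and low in the same arrays. With genotype means subtracted, Pearson's r between them was 0.83 over the 10 arrays (Spearman's rho 0.73), at 0.88 among the heterozygous and 0.80 among the wild type arrays. Over the 8 arrays without heterozygous 5 and wild type 5, the farthest from the Lyl1 median, r was 0.93. Of 14952 genes, 2.02% followed Lyl1 at least as closely as Ldb1 did. Lmo4 and Lmo2 did not share this pattern. For Lmo4 r was -0.36 to Ldb1, -0.38 to Lyl1 and -0.066 to Lmo2. For Lmo2 it was 0.13 to Ldb1 and 0.010 to Lyl1. Without heterozygous 5 and wild type 5, r between Lmo4 and Lyl1 was 0.041. The promoter windows of Ldb1 and Lyl1 are shown because these 2 members ran together. The outermost of 3 Ldb1 windows, on the minus strand at chr19:46045262-46045561, holds none of the motifs. It lies inside the gene, whose outer end at 46048145 is in no window and was not searched. The only Lyl1 window, on the plus strand at chr8:84701207-84701506, holds 1 CANNTG (in capitals).
Ldb1 outer start: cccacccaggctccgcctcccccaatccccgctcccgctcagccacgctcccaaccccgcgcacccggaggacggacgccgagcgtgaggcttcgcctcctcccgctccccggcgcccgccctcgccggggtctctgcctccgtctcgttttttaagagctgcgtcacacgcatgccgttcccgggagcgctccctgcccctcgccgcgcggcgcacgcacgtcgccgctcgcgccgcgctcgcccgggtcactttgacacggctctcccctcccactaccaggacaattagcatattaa
Lyl1 start: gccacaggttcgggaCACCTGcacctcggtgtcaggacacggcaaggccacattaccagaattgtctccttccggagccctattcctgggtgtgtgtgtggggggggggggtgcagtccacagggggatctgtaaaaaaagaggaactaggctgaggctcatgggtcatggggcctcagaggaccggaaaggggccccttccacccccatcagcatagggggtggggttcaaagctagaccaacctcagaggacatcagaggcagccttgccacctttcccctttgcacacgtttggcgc
The innermost Ldb1 window, not printed, holds 2 CANNTG and 2 GATAA.

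Lyl1 also ran with the mean of the T cell and NK cell markers, which lay above its wild type range in every heterozygous array. With genotype means subtracted, r was 0.89 over the 10 arrays (Spearman's rho 0.93) and 0.83 over the 8 arrays without heterozygous 5 and wild type 5. Of 14947 genes outside that list, 11 had an r at least as high, Lyl1 among them. Of the 6 markers tested 5 had a higher mean in heterozygous arrays, as 61.3% of all genes did. Groups did not overlap for 3 (2.28% of all genes), and 0 passed adjustment. The groups of Cd3e, Nkg7 and Il2rb were the ones that did not overlap, while those of Thy1, Cd8a and Cd4 did. Cd4 was at -0.055. The 3 genes without overlap were dim, with the filter at 4.52 log2. Cd3e ran from 5.26 to 5.60 in heterozygous and from 4.82 to 5.24 in wild type arrays. For Nkg7 these ranges were 5.24 to 5.84 and 4.57 to 5.22, and for Il2rb 4.83 to 5.09 and 4.21 to 4.76. Cd8a and Cd4 did not exceed 5.76 in any array. Thy1 ran from 8.64 to 9.27 in heterozygous and from 7.72 to 8.97 in wild type arrays, and Cd3g, Klrb1c and Ncr1 stood below the filter. The part of these markers in the Lyl1 difference was not tested. In all, 46 such relations were computed, of the 4 members with 9 marker lists, with each other and with Hspa9, and they are given as descriptions.

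**Figure D2:**
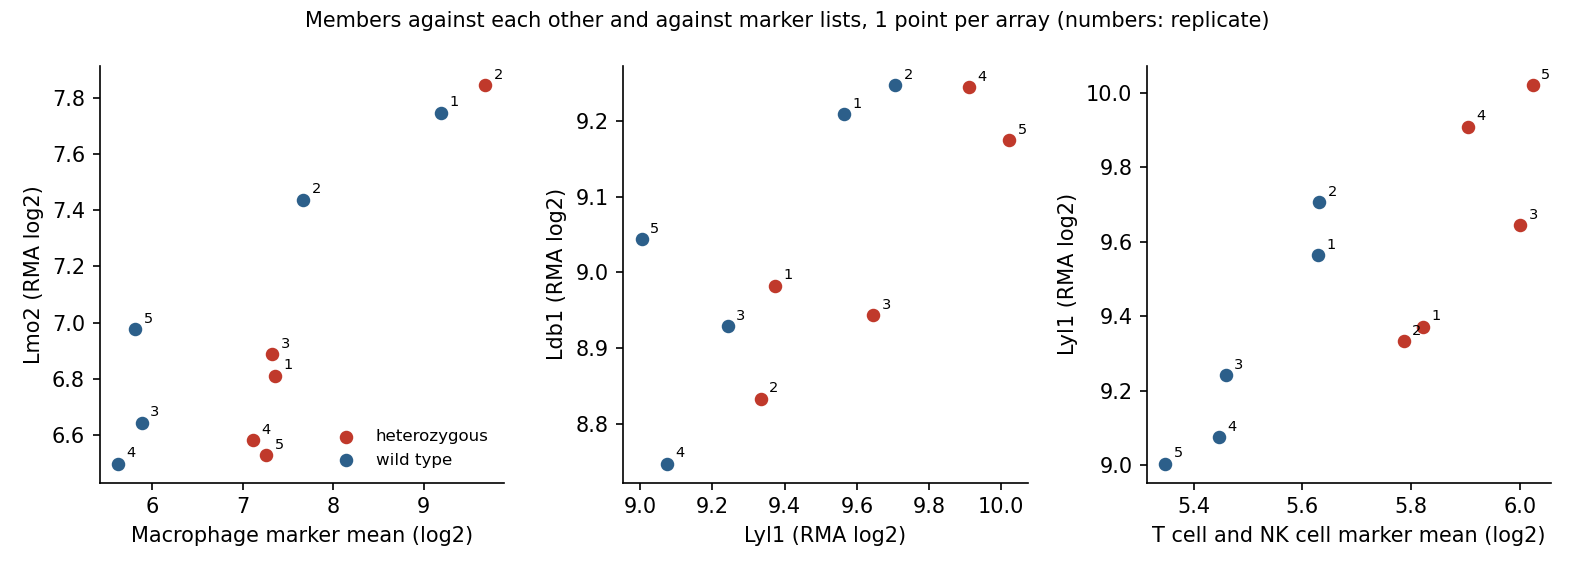
Each point is 1 array (red heterozygous, blue wild type, numbered by replicate): Lmo2 against the mean of 12 macrophage markers, Ldb1 against Lyl1, and Lyl1 against the mean of 6 T cell and NK cell markers, all on the log2 scale. Lmo2 is highest in heterozygous 2 (7.85) and wild type 1 (7.75), the arrays with the most macrophage signal.

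Across arrays, the members stood to Hspa9 as follows. With genotype means subtracted, the r of Hspa9 was 0.19 to Lmo4, -0.72 to Lmo2, -0.56 to Ldb1 and -0.56 to Lyl1. Without the 2 arrays farthest from the Hspa9 median, wild type 3 and wild type 4, these were 0.35, -0.55, -0.24 and -0.54. The negative values were larger in size among the wild type arrays. For Lmo2, r was -0.40 among heterozygous and -0.95 among wild type arrays, for Ldb1 0.0041 among heterozygous and -0.86 among wild type arrays, and for Lyl1 -0.27 among heterozygous and -0.78 among wild type arrays. For Lmo4 it was 0.053 among heterozygous and 0.31 among wild type arrays.

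The genes whose pattern was most like each member's, by Pearson's r over the 10 arrays with genotype means subtracted, differed between members. For Lmo4 they were Cblb, a ubiquitin ligase that restrains lymphocyte receptor signalling (r 0.91), the Hippo pathway kinase Lats2 (0.87) and the melanocortin receptor gene Mc4r (0.86). Cblb had means of 8.41 in heterozygous and 8.82 in wild type arrays, a difference of -0.41 (adjusted p = 0.349). For Lmo2 they were the zinc finger factor gene Egr2 (0.99), the septin gene Septin8 (0.99) and Pacc1, a proton-activated chloride channel (0.98). For Ldb1 they were Cstf1, a subunit of the mRNA cleavage stimulation factor (0.98), the nuclear envelope protein emerin, Emd (0.98), and the tryptophanyl-tRNA synthetase gene Wars (0.98). For Lyl1 they were the kinase gene Araf (0.97), the D-type cyclin Ccnd3 (0.97) and Aacs, an acetoacetyl-CoA synthetase (0.96). Ccnd3 had means of 10.90 in heterozygous and 10.49 in wild type arrays, a difference of 0.42 (adjusted p = 0.449), and Aacs 7.29 in heterozygous and 6.91 in wild type arrays, a difference of 0.38 (adjusted p = 0.351). With r taken over 14953 genes and only 10 arrays, high values are to be found for any gene.

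The other genes of these complexes were read from 11 lists. Besides the 4 members they hold 49 genes, of which 46 matched a probe set, 7 stood below the filter and 39 were tested. None of the 39 passed adjustment, as no gene did. At an unadjusted p under 0.05, 6 of 39 were higher (15.4%, against 6.79% of all genes) and 1 was lower (2.56%, against 4.25%). The count of higher genes depended on the normalization. Lhx4, Lhx8 and Kit had an unadjusted limma p of 0.170, 0.147 and 0.052 with quantile normalization. With cyclic loess these were 0.135, 0.129 and 0.056. Lmx1b was at 0.060 with quantile normalization. The median difference of the 39 was 0.088 and that of all genes 0.058, and 0 of 39 had groups that did not overlap.

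Among LIM-binding proteins and their partners, Ssbp2 had the smallest p. It encodes a single-stranded DNA-binding protein that protects Ldb1 from degradation. Its values were 7.37, 7.57, 7.54, 7.58 and 7.50 in heterozygous arrays 1 to 5, against 7.71, 7.37, 6.86, 6.97 and 6.88 in wild type arrays 1 to 5. Heterozygous arrays lay close together, and wild type 1, one of the 2 arrays with most macrophage signal, lay above all of them. The difference was 0.36 (SE 0.162, adjusted p = 0.451). Without wild type 1 and heterozygous 2 it was 0.48 (SE 0.132, adjusted p = 0.174), and the groups lay side by side without overlap (8.65% of all genes had no overlap in those 8 arrays). With the macrophage mean as a covariate the Ssbp2 difference was 0.20 (SE 0.118, adjusted p = 0.419). With that covariate and without the same 2 arrays it was 0.25 (SE 0.139, adjusted p = 0.698). With the early progenitor mean as a covariate it was 0.063. Ssbp3 (0.023) and Ssbp4 (0.12), of the same family, Ldb2 (0.084), the paralogue of Ldb1, and Rlim (-0.098), a ubiquitin ligase that marks Ldb1 for degradation, all had intervals that include 0.

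The basic helix-loop-helix partner Tal1, the close relative of Lyl1, was dim and had a mean difference of 0.21 (SE 0.107, adjusted p = 0.492). It ran from 5.84 to 6.06 in heterozygous and from 5.39 to 5.91 in wild type arrays, so the groups overlapped. Tal2 and Nhlh1 stood below the filter.

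Of the E proteins, which pair with Tal1 or Lyl1 and drive early B cell development, Tcf12 had the smallest p. Its values were 8.64, 8.30, 8.60, 8.25 and 7.84 in heterozygous arrays 1 to 5, against 8.71, 8.43, 8.86, 8.90 and 8.90 in wild type arrays 1 to 5. Wild type 2 lay below heterozygous 1 and 3, so the groups overlapped. The difference was -0.43 (SE 0.160, adjusted p = 0.391). Tcf3 was at -0.038 (95% interval -0.49 to 0.41) and Tcf4 at -0.087 (-0.82 to 0.65). The 4 Id genes, whose products bind E proteins and keep them off DNA, ran from -0.27 for Id3 to 0.21 for Id2, and Id3 had the smallest p of them (adjusted p = 0.605). Id2 spanned 7.17 to 9.38 in heterozygous and 6.63 to 8.94 in wild type arrays.

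GATA factors, the other DNA-binding arm of the Lmo2 complex, were dim. Gata1 ran from 4.97 to 5.21 in heterozygous and from 4.77 to 5.31 in wild type arrays, with a difference of -0.010. Gata2 was at 0.19 and Gata3 at 0.28 (adjusted p of 0.503 and 0.474). Zfpm1, a cofactor that binds GATA proteins, was at 0.030. The ETO corepressors, which the erythroid complex recruits, were at 0.054 for Cbfa2t2 (adjusted p = 0.915) and -0.025 for Cbfa2t3. Of the ETS and RUNX factors that share sites with Lmo2 in stem and progenitor cells, Erg was at 0.40 (95% interval -0.12 to 0.92), Fli1 at -0.23 (-0.56 to 0.10) and Runx1 at 0.015 (-0.48 to 0.51). Of the known Lmo4 binding partners, the transcription factor Deaf1 was at 0.17 (-0.11 to 0.46) and the DNA repair protein Brca1 at -0.17 (-0.92 to 0.58).

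LIM-homeodomain factors, which bind Ldb1 through the same kind of LIM domain, were all dim: the 10 tested had means over all arrays between 4.55 and 6.05. Of the 10, 9 had a positive difference and 3 an unadjusted p under 0.05, Lmx1b at 0.32 (SE 0.123), Lhx8 at 0.27 (SE 0.115) and Lhx4 at 0.24 (SE 0.106), with adjusted p of 0.406, 0.440 and 0.448. Their groups overlapped, as for Lmx1b from 6.02 to 6.38 in heterozygous and from 5.59 to 6.09 in wild type arrays. Over all genes 61.3% of differences were positive, and 6.79% of genes were higher at an unadjusted p under 0.05. With quantile normalization Lmx1b was at 0.28, Lhx8 at 0.17 and Lhx4 at 0.16.

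Genes that the Lmo2 and Ldb1 complex or its parts are known to bind in other blood cells were led by Gfi1b, a zinc finger repressor of erythroid and megakaryocyte precursors. Its values were 8.11, 7.97, 8.35, 8.80 and 8.82 in heterozygous arrays 1 to 5, against 8.35, 7.75, 7.57, 7.40 and 7.80 in wild type arrays 1 to 5. Wild type 1 lay above heterozygous 1 and 2, and the other 4 wild type arrays lay below all heterozygous arrays. The difference was 0.64 (SE 0.213, adjusted p = 0.357). Without wild type 1 and heterozygous 2 it was 0.89 (SE 0.176, adjusted p = 0.0808), and the groups did not overlap. In those 8 arrays 8.65% of all genes had no overlap. Kit, the stem cell factor receptor and also 1 of the 7 early progenitor markers, had values of 6.82, 5.99, 6.77, 6.83 and 6.44 in heterozygous arrays 1 to 5, against 6.10, 5.90, 6.65, 6.10 and 5.81 in wild type arrays 1 to 5. Its groups overlapped and the difference was 0.46 (SE 0.198, adjusted p = 0.446). Hhex, a homeobox gene, was at -0.30 (95% interval -0.61 to 0.016), Nfe2, an erythroid and megakaryocyte factor, at 0.35 (-0.080 to 0.78), and Klf1, the erythroid Kruppel-like factor, at 0.072. Erythroid markers beside these genes ran from 5.62 to 5.98 in heterozygous and from 5.44 to 5.86 in wild type arrays as the mean of the 6 tested of 9. The megakaryocyte mean (5 of 8 tested) ran from 5.34 to 7.40 in heterozygous and from 5.07 to 7.27 in wild type arrays, highest in heterozygous 2 and wild type 1. Their part in the Gfi1b and Kit differences was not tested.

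**Figure D3:**
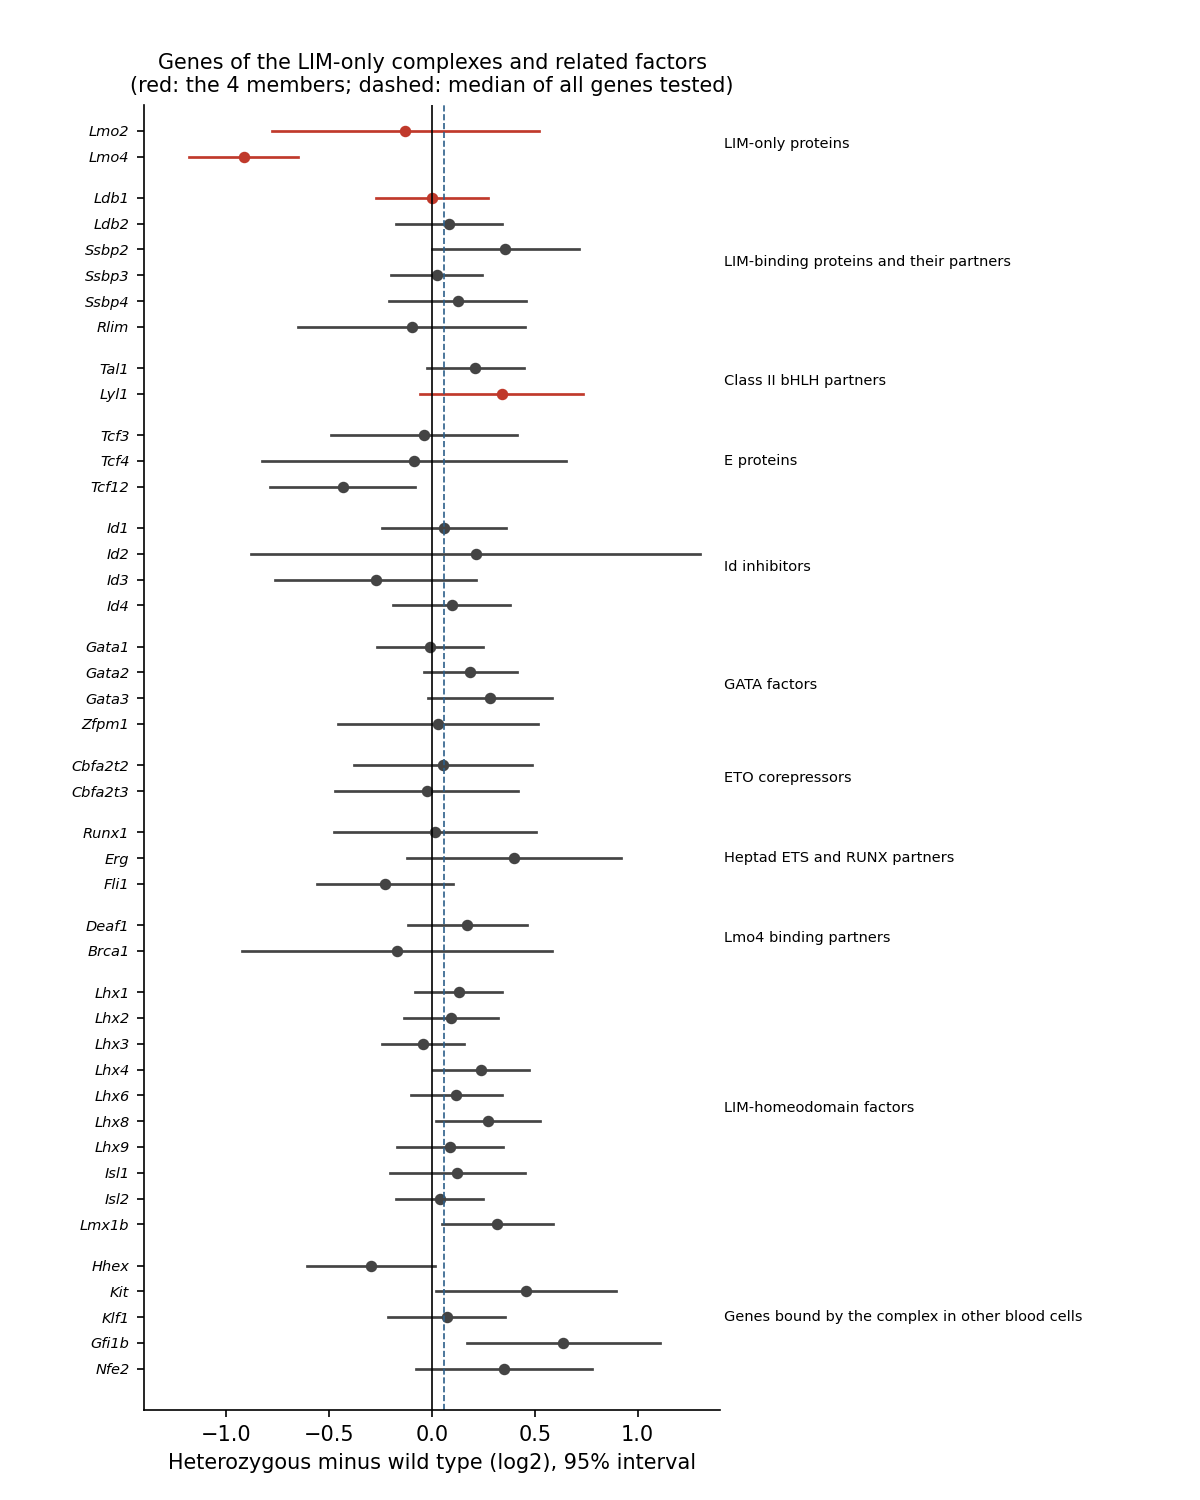
Heterozygous minus wild type difference (log2) with its 95% interval for the 43 tested genes of the 11 lists, the 4 members in red; the dashed line is the median of all genes tested (0.058). Lmo4 at -0.92 stands farthest from 0, and none of the 43 passed adjustment.

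**Figure D4:**
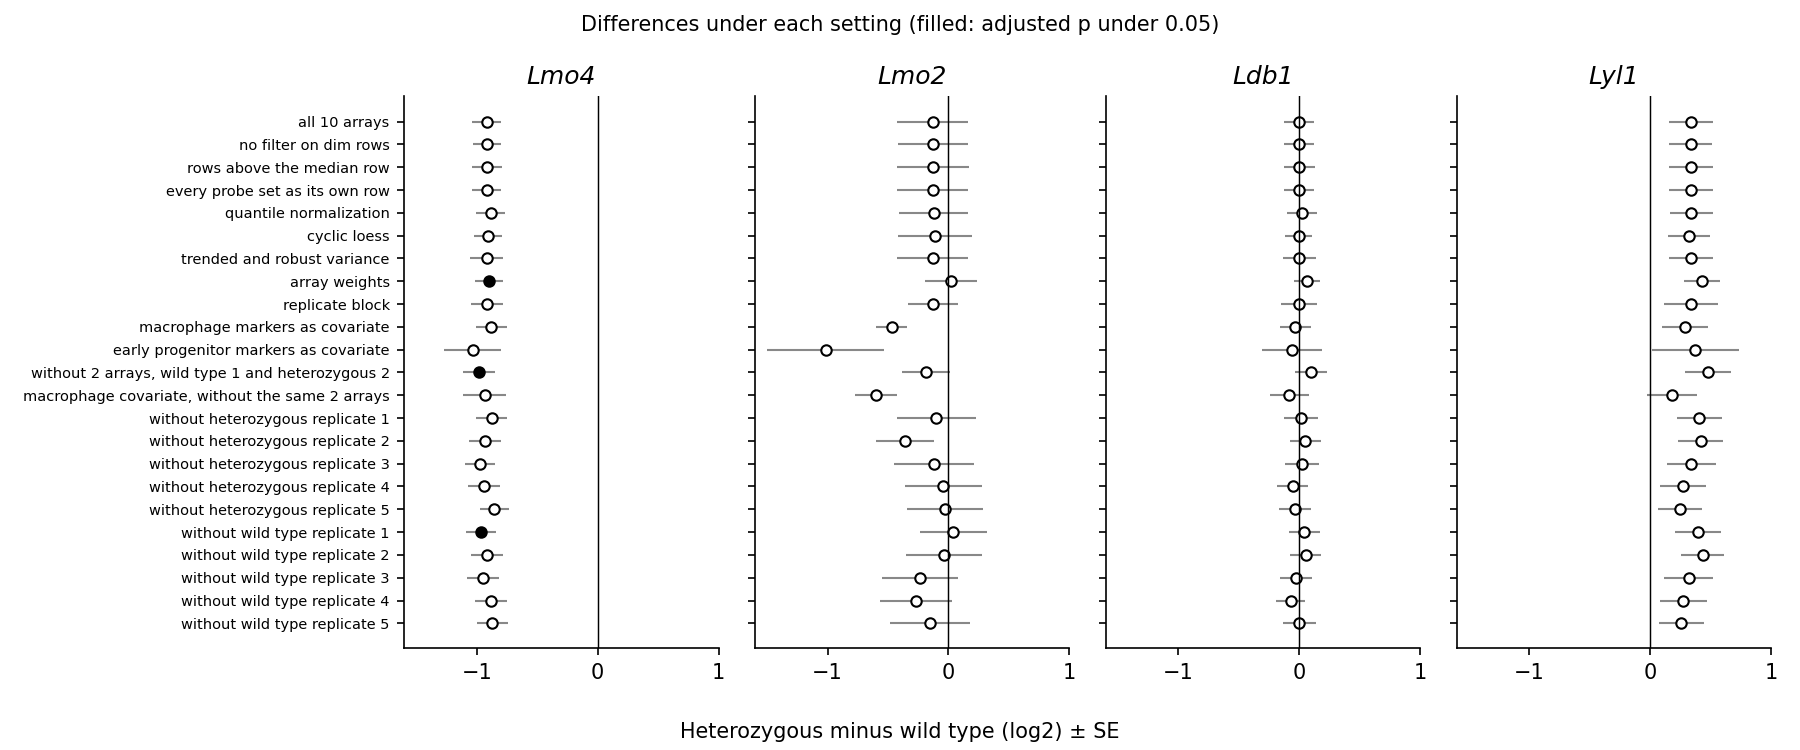
Heterozygous minus wild type difference (log2) ± SE of each member with all 10 arrays and under each of 22 alternative settings; filled points have an adjusted p under 0.05. Lmo4 lies between -1.03 and -0.86 in the alternatives, and Ldb1 between -0.080 and 0.094.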

How the data were processed

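Per the labels, the authors hybridised amplified cDNA of B220+ cells from 10 cultures to Mouse Gene 1.0 ST arrays and deposited gene-level RMA values on the log2 scale, made with Affymetrix Expression Console. The software version, genome build and annotation are not given in the sources used here. By its design RMA brings arrays to a shared distribution, so a shift of most genes one way would be largely removed.

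Of 35556 probe sets, 21789 had 1 symbol in the platform annotation, 1621 several and 12146 none listed. Of the 21789, 21698 matched the RefSeq table of GRCm38.p6 by Entrez identifier. Each symbol was represented by its probe set of highest mean, and rows at or below the 25th percentile were left out, leaving 14953 genes.

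Genotypes were compared in R 4.3.3 with limma 3.58.1 (lmFit, eBayes) as the heterozygous minus the wild type mean, p-values were adjusted over all genes by Benjamini-Hochberg, and the threshold was 0.05. SE and 95% intervals are limma's. In simulated arrays with 200 of 14953 genes changed by 1 log2 unit, 74.5% were recovered, with 8 false calls. Each gene was drawn independently there, while genes vary together in the real arrays, so this share need not hold for them. Alternative settings were other filters, all probe sets, other normalizations, variance models, array weights, a replicate block, marker covariates and arrays left out.

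The named genes were the 4 members, Hspa9, pathway genes of unadjusted p under 0.05 or of smallest p per list, and the 3 genes most like each member. Other genes were named after their values were seen. Members and lists were chosen with earlier results of these data known. Cultures were independent per the series design.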

Additional observations from a re-analysis of the deposited data

Results flagged for a closer look

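Lmo2 in heterozygous 2 was at 7.85 log2, far above the other 4 heterozygous arrays, which ran from 6.53 to 6.89; the gap to the nearest took up 0.727 of the group's range, above the 95% critical value of Dixon's test for 5 samples. Of 10 groups checked (the 4 members and Hspa9 in each genotype) this was the only 1, and chance alone sets apart about 1 group in 20. Heterozygous 2 also had the highest macrophage marker mean of all arrays, 9.68.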

How the results depend on the processing

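Lmo4 kept its negative difference in all 22 alternatives. It passed the threshold in 3 of them: -0.90 with array weights (adjusted p = 0.0209), -0.98 without both wild type 1 and heterozygous 2, and without wild type 1 alone. Leaving out 1 array at a time it ran from -0.98 to -0.86, with adjusted p from 0.0224 to 0.320. Lyl1 kept its positive difference in all 22. Lmo2 was at 0.022 with array weights and ran from -0.36 to 0.042 without 1 array, and it was at -1.02 with early progenitor markers, -0.47 with macrophage markers and -0.60 with macrophage markers and without wild type 1 and heterozygous 2, a setting chosen after seeing the data. That added setting put Ldb1 at -0.080 and called 2 genes. Ldb1, near 0 throughout, was at -0.0032 with cyclic loess, -0.031 with macrophage markers and -0.061 with early progenitor markers as covariate, and ran from -0.072 to 0.054 without 1 array.

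The count of genes called, 0 with all arrays, was 137 with array weights, 26 without both wild type 1 and heterozygous 2, 22 without wild type 1, 3 without heterozygous 2 and 2 in the added setting, and 0 in the other alternatives. The 7 other pathway genes with an unadjusted p under 0.05 kept their direction in every setting that tested them, also followed after seeing the data, and none passed. Of the pathway genes 1 was called with array weights, without wild type 1 and without both arrays, and that was Lmo4; without 1 array the count ran from 0 to 1. The cause was not tested. The labels do not say whether the replicate numbers pair the samples. Deviations of same-numbered arrays correlated from -0.53 to 0.53. The arrays also differ in macrophage signal, so these correlations cannot settle the pairing. With the replicate block the Lmo4 difference of -0.92 had an adjusted p of 0.501 and 0 genes were called.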
